A study of Mus musculus with 21 samples.

Results

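The interferon response and MHC class I genes were followed in the cerebral cortex of 21 mice. A list of 35 such genes was taken, and 31 of them had a probe set of their own among the 12393 genes measured on Affymetrix MOE430A 2.0 arrays. Where a gene had several probe sets, that of highest mean level was taken. The 31 genes comprised 7 interferon sensors and regulators, 13 antiviral effectors, 5 interferon-induced GTPases and 6 genes of MHC class I and peptide loading. Ddx58, Ifi44 and Xaf1 had no probe set, and Isg15 had only a probe set shared with Gm9706, so these 4 have no value here.

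Interferons are secreted proteins that a cell makes when it senses viral or misplaced nucleic acid. They bind receptors on the same and neighbouring cells, and JAK kinases pass the signal on to transcription factors that switch on a large set of antiviral genes. The same signal raises MHC class I, the surface complex that shows peptides from inside the cell to CD8 T cells. In the brain, microglia, astrocytes, endothelium and neurons can all respond.

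The transgene of these mice encodes human TDP-43, which binds RNA, and its expression needs the transactivator tTA, which doxycycline in the diet keeps inactive. Tissue was taken 2 weeks after doxycycline was withdrawn, with 1 array for each mouse. The 5 dNLS bigenic mice carried tTA and, from line NLS4, TDP-43 with a defective nuclear localization signal, and the 4 dNLS monogenic mice carried that TDP-43 transgene without tTA. The 4 WT bigenic mice carried tTA and wild-type TDP-43 from line WT12, and the 8 nontransgenic mice, from both lines, carried neither transgene. All were of a mixed C57BL/6J x C3HeJ background, and their ages are not given in the labels. No group carried tTA alone, so an effect of tTA and one of TDP-43 cannot be told apart in the bigenic mice. dNLS bigenic and WT bigenic mice also came from different lines, which cannot be told apart from the protein they made. Their labelled sexes differed too: 4 dNLS bigenic mice were male and 1 female, against 1 male and 3 female WT bigenic mice. Sex was therefore partly tied to group between these mice. The 2 nontransgenic mice from WT12 were labelled female. The promoter that drives tTA is not named in the labels.

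Levels are log2 values as deposited, from 2.04 to 15.1, so a difference of 1 is a doubling. Between 30.7% and 32.4% of the probe sets of an array lay at the lowest value, and changes near it are compressed. The difference between 3' and 5' probe sets of beta-actin, which grows as RNA breaks down, was 8.196 on the array of nontransgenic 6 and 4.696 on nontransgenic 4. It was 1.374 to 1.433 on the WT bigenic arrays, all below the nontransgenic range, which began at 1.465 (two-sided exact permutation test, p = 0.00404, adjusted over 5 comparisons 0.0202). The mouse nontransgenic 1, labelled male, read as female by Xist. In whole cortex, fewer cells of a type and less RNA per cell cannot be told apart. Groups were compared with limma over all 21 arrays with sex as a covariate, with Benjamini-Hochberg adjustment of p over the 12393 genes and a threshold of 0.05.

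Many interferon-stimulated genes carry the interferon-stimulated response element near their start. A core of this motif, GAAA, any 2 bases and GAAA again, was looked for on both strands (read from the other strand it is TTTC, any 2 bases and TTTC) in RefSeq promoter windows of GRCm38.p6, which run from 250 bases before to 50 after a start. It was found in 3.44% of the 32851 windows and 3.99% of the 27025 genes, and in 17 of the 30 listed genes in that table (56.7%). A match is a description and not a shown binding site. The 250 bases before the start are shown for the 5 genes that passed the test in a comparison and for B2m, the member of highest level, with each match of the GAAA motif on either strand in capitals.
Ifit1 (GRCm38.p6, chr19:34640639-34640888, plus strand): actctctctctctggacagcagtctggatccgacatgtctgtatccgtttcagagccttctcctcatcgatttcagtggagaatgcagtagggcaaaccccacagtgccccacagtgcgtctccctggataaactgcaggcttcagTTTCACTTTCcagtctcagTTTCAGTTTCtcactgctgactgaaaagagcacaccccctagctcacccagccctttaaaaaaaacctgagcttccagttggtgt
Bst2 (chr8:71537473-71537722, minus strand): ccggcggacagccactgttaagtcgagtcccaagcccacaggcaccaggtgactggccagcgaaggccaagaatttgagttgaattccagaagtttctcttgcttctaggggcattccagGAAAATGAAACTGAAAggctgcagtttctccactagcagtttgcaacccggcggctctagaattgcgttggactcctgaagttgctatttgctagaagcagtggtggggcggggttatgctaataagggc
Rsad2 (chr12:26456453-26456702, minus strand): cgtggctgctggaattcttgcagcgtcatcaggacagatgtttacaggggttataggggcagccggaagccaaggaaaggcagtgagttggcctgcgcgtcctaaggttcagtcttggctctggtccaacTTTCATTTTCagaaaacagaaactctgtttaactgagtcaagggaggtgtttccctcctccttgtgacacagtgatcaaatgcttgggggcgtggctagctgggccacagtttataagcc
Ifitm2 (chr7:140955962-140956211, minus strand): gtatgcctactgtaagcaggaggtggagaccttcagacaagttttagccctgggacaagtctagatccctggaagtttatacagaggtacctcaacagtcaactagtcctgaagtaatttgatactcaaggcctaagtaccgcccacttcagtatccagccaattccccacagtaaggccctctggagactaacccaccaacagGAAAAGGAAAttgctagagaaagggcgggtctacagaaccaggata
B2m (chr2:122147437-122147686, plus strand): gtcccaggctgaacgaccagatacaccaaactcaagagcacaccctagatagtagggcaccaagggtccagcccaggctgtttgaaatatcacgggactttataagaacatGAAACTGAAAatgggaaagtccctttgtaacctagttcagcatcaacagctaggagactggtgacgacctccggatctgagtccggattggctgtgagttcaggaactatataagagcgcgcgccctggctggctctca
Irf9 (chr14:55603735-55603984, plus strand): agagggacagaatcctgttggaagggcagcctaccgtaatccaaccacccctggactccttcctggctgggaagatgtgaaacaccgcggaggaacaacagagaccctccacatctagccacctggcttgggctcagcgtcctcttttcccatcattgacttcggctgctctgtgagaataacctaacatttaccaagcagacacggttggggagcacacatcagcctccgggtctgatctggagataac
Ifit1 and Bst2 each held 2 matches, which overlap in Bst2, and Rsad2, Ifitm2 and B2m held 1 each. The Irf9 window, the first of 2 starts in the table, held none. H2-K1, H2-D1, Tap1 and Tapbp held no match of the GAAA motif in their windows.

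The members spanned nearly the whole scale of the array. B2m, the invariant light chain of class I, had a mean level of 12.83 over the 21 arrays, and Tapbp (tapasin, which holds empty class I molecules at the peptide transporter) 10.88. Ifitm3, a membrane protein that blocks virus entry, averaged 9.76, H2-D1 8.49, H2-K1 8.33 and Ifitm2 8.02. By contrast 17 of the 31 members had a mean under 3. For 8 of them, Irf7, Stat2, Oas2, Mx1, Ifi35, Iigp1, Tap1 and Tap2, no array reached 3, and Oas2 lay at the lowest value on every array. Of 7 interferon genes with a probe set, among them Ifnb1 and Ifng, 1 rose above the lowest value, and only to 2.07 on 1 array (Ifna1, nontransgenic 4). The map of levels by array shows these flat rows, and it shows where the higher values lie.

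**Figure D1:**
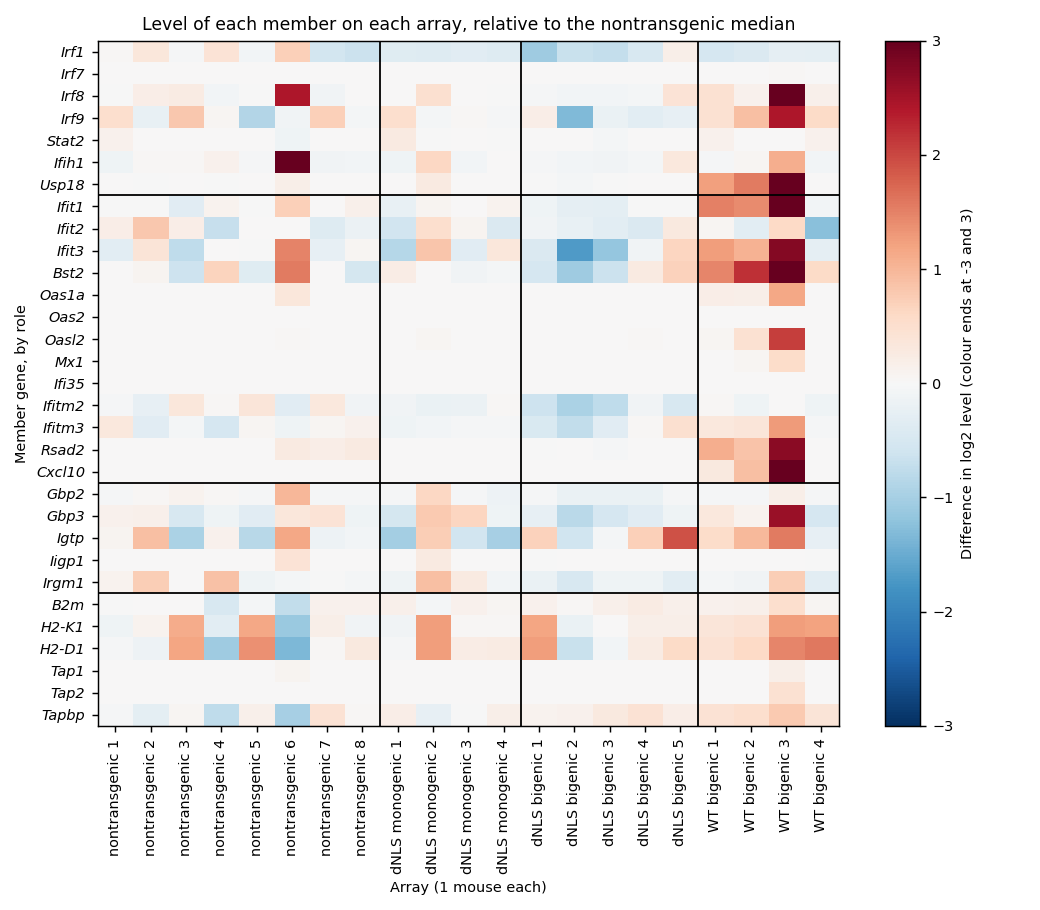
Log2 level of each of the 31 members (rows, by role) on each of the 21 arrays (columns, by group) minus the median of the 8 nontransgenic arrays; red is higher and blue lower. WT bigenic 3 has the most red cells and was the highest array for 17 members, and Ifih1 and Irf8 are also red on nontransgenic 6.

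Mislocalized TDP-43 was first compared with nontransgenic cortex. No member rose in dNLS bigenic mice and 1 fell, Ifitm2, a relative of Ifitm3 that also restricts virus entry. Across all genes in this comparison 10.8% were called higher and 11.5% lower, 22.3% in all, and the members' count of 1 in 31 lay under that. The share of all genes was not matched for level, and 17 of the 31 members had a mean under 3. The median change of the members was -0.03 and that of all genes 0.00. At an unadjusted p under 0.05, 1 member was higher and 3 lower, against 31.7% of all genes.

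Ifitm2 had levels of 7.56, 7.23, 7.41, 8.06 and 7.70 in the 5 dNLS bigenic mice. The 8 nontransgenic mice ran from 7.83 through a median of 8.18 to 8.53. Only dNLS bigenic 4 reached into the nontransgenic range, and the other 4 mice lay below all nontransgenic mice. The level fell by 0.61 ± 0.14 (SE) on the log2 scale, which is 1.52-fold (limma, Benjamini-Hochberg adjusted p = 0.00494). The call held in all 34 alternative analyses, with adjusted p from 0.0006 to 0.0431. In WT bigenic mice Ifitm2 measured 8.22, 8.05, 8.19 and 8.05, inside the nontransgenic range.

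The regulators gave no call. Irf1, a transcription factor downstream of interferon gamma, measured 2.29, 2.69, 2.65, 2.87 and 3.54 in dNLS bigenic mice against 2.71 to 4.08 (median 3.36) in nontransgenic mice. The change was -0.56 ± 0.22 (adjusted p = 0.085, limma). Irgm1, a GTPase that acts on vacuoles holding microbes, measured 3.96 to 4.32 against 4.32 to 5.33, with a change of -0.53 ± 0.21 (adjusted p = 0.0889, limma). Irf1 passed the threshold against controls of line NLS4 and in male mice alone, and without dNLS bigenic 5, nontransgenic 7 or nontransgenic 8. Irgm1 passed it when only the 2 groups were fitted, and without WT bigenic 3.

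The 2 abundant class I partners gave positive differences in dNLS bigenic mice that did not pass the test. Tapbp measured 10.89, 10.92, 11.07, 11.22 and 10.99 against 9.78 to 11.21 in nontransgenic mice (median 10.78), a difference of 0.45 ± 0.20 (adjusted p = 0.123, limma). B2m measured 12.83 to 13.04 against 12.04 to 12.93 (median 12.79), a difference of 0.28 ± 0.14 (adjusted p = 0.172, limma). For both genes the lowest 2 nontransgenic arrays were nontransgenic 6 and nontransgenic 4, the arrays with the largest beta-actin difference. The part of RNA quality in these differences was not tested.

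Against dNLS monogenic mice, which hold the silent transgene, no member passed the test in dNLS bigenic mice, where 7.76% of all genes were called higher and 6.54% lower, 14.3% in all. The median change of the members was -0.07. Ifitm2 measured 8.08, 7.98, 8.0 and 8.21 in the monogenic mice, and the difference of -0.47 ± 0.16 missed the threshold (adjusted p = 0.0654, limma). That difference passed under quantile normalization, with beta-actin as a covariate, without nontransgenic 4 and 6 together, without nontransgenic 6 and without dNLS bigenic 4. Monogenic and nontransgenic mice gave no call in any gene (0.0%) and no member at an unadjusted p under 0.05, at which 1.58% of all genes lay.

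**Figure D2:**
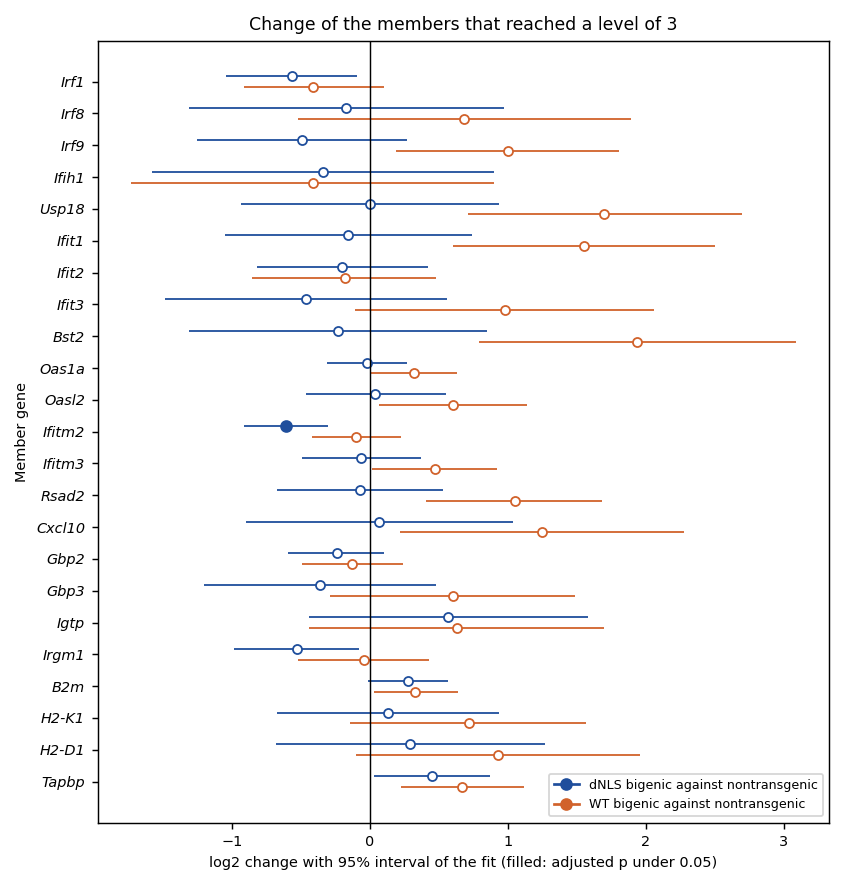
Change in log2 level (horizontal axis) with the 95% interval of the limma fit for the 23 members that reached a level of 3 on an array, in dNLS bigenic (blue) and WT bigenic (orange) mice against nontransgenic mice. The only filled point, past the threshold, is Ifitm2 in dNLS bigenic mice at -0.61; Bst2, Usp18 and Ifit1 have the largest values in WT bigenic mice.

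In WT bigenic mice the levels of several antiviral genes varied widely from mouse to mouse. No member passed the test in WT bigenic against nontransgenic mice, where 0.686% of all genes were called higher and 1.54% lower, 2.23% in all. The median change of the members was nevertheless 0.33, against 0.00 for all genes and -0.02 for the 9539 genes above the lowest value on an array. At an unadjusted p under 0.05, 12 members were higher and none lower, against 18.5% of all genes in either direction. The largest differences were those of Bst2, Usp18, Ifit1, Cxcl10 and Rsad2. Usp18, Cxcl10 and the further members given below by array were chosen after their values were seen.

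Usp18, a protease that strips ISG15 from proteins and damps interferon receptor signalling, measured 3.34, 3.67, 6.34 and 2.11 in WT bigenic mice 1 to 4. In nontransgenic mice it ran from 2.10 through 2.11 to 2.28. WT bigenic 1, 2 and 3 lay above all 17 mice of the other groups, and WT bigenic 4 lay among them. The difference was 1.70 ± 0.47 (adjusted p = 0.0692, limma).

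Ifit1, which binds viral RNA that lacks the host cap, measured 4.07, 3.98, 6.47 and 2.47. The nontransgenic range was 2.21 to 3.28 with a median of 2.56. The order of the 4 mice was like that of Usp18, with WT bigenic 3 highest and WT bigenic 4 within the nontransgenic range. The difference was 1.55 ± 0.45 (adjusted p = 0.0803, limma).

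Bst2, or tetherin, which holds budding virus at the cell surface, measured 5.27, 5.99, 8.17 and 4.39 against 3.20 to 5.36 (median 3.81). WT bigenic 2 and 3 lay above the nontransgenic range, whose highest value came from nontransgenic 6. The difference was 1.94 ± 0.54 (adjusted p = 0.0722, limma). Rsad2, or viperin, an enzyme that makes a chain-terminating nucleotide, measured 3.17, 2.92, 4.78 and 2.07 against 2.07 to 2.34, a difference of 1.05 ± 0.30 (adjusted p = 0.0778, limma). Cxcl10, a chemokine that draws activated T cells, measured 2.33, 2.94, 6.09 and 2.04, while every nontransgenic mouse lay at 2.04, and its difference was 1.25 ± 0.49 (adjusted p = 0.174, limma). For Rsad2 and Cxcl10, WT bigenic 4 again lay at or near the bottom of the scale.

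**Figure D3:**
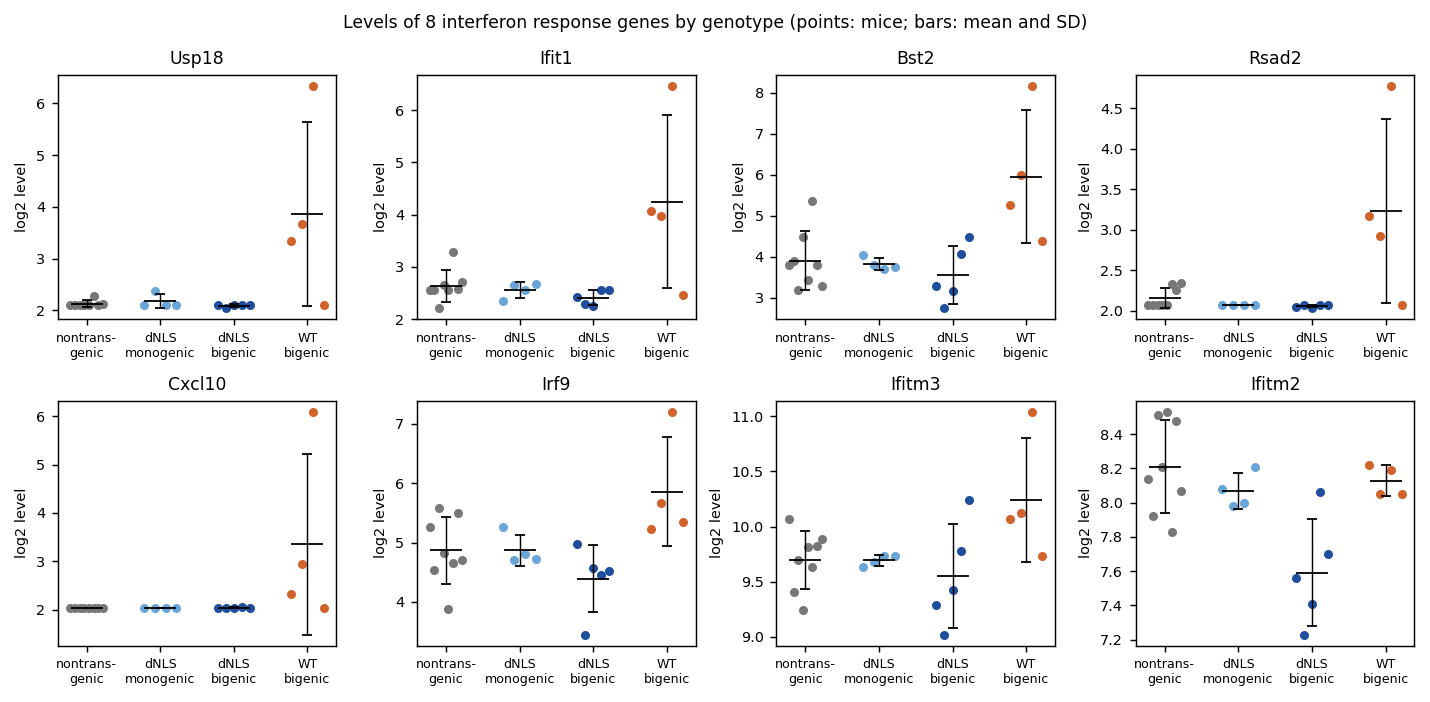
Log2 level (vertical axis) of 8 interferon response genes in each mouse (points) by group, with the mean and SD of the group (bars). In the first 5 panels WT bigenic 3 is the highest point, WT bigenic 1 and 2 lie lower and WT bigenic 4 lies within the nontransgenic range, and in the last panel 4 of the 5 dNLS bigenic points lie below all nontransgenic points.

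Of the 31 members, 28 lay above the lowest value on an array other than WT bigenic 3, and for 17 of these WT bigenic 3 was the highest of the 21 arrays, against 6.91% of 9502 genes chosen in the same way. By role these were 9 of 11 antiviral effectors, 4 of 7 regulators, 3 of 5 class I genes and 1 of 5 GTPases. For 3 of the 17, Irf7, Mx1 and Tap1, the level there was under 3. Irf9 reached 7.20 there against 5.66 on the next array, Ifit3 9.12 against 7.85, Oasl2 4.11 against 2.50 and Gbp3 5.80 against 4.0. The array of nontransgenic 6, which was highest for 28.6% of genes, was highest for 4 members. For 4 of the 31 members, Usp18, Ifit1, Rsad2 and Cxcl10, the 3 highest arrays were WT bigenic 1, 2 and 3. That pattern was held by 0.307% of all 12393 genes (38), but 2854 of them lay at the lowest value on all arrays and could not hold it. Both WT bigenic 3 and this set of 3 arrays were singled out after the members' levels were seen. The shares are therefore descriptions and not tests.

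Without WT bigenic 3 the differences from nontransgenic mice were smaller and none passed the test. Usp18 then differed by 0.92 (adjusted p = 0.0676), Ifit1 by 0.86 (0.166) and Bst2 by 1.27 (0.222) in limma. Rsad2 differed by 0.56 and Cxcl10 by 0.39 (adjusted p = 0.121 and 0.133, limma). Without WT bigenic 4, whose levels were low, 4 members passed, which were Bst2 (2.48), Ifit1 (2.14), Rsad2 (1.43) and Usp18 (2.27). Bst2 also passed without nontransgenic 6, at 2.18 (adjusted p = 0.0414, limma). Centring each array on its median moved the median of all genes to -0.11 in this comparison. Then 5 members were called higher and 2 lower, and of all genes 226 higher and 4740 lower. The 2 lower members were Oas2, at the lowest value on every array before centring, and Ifi35, which reached at most 2.06. Bst2 differed by 2.58 and Usp18 by 1.80 against the 2 nontransgenic mice of the same line (adjusted p = 0.172 and 0.371, limma).

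Markers of microglia, the macrophages of brain tissue, moved with these members. The mean level of 12 microglia markers was 10.61 on WT bigenic 3, 8.87 to 9.15 on the other WT bigenic arrays, 8.23 to 8.93 on the nontransgenic and 7.69 to 8.59 on the dNLS bigenic arrays. WT bigenic 3 was the highest array for 11 of these 12 markers. None of the 12 passed the test between WT bigenic and nontransgenic mice, and their median change was 0.61. Over all genes, its largest margins over the next array were those of Cst7 (9.69 against 2.05), Ccl3 (9.80 against 3.94), Ccl9, Clec7a and Trem2 (8.05 against 3.31), genes of activated microglia or chemokines, and Cxcl10 ranked 10, Usp18 16 and Ifit1 19 in that order. WT bigenic 3 was also highest for 3 of 9 astrocyte markers and for none of the markers of neurons, oligodendrocytes, meninges or choroid plexus. The mean of 4 choroid plexus markers was nonetheless 5.72 there, 4.38 to 4.76 on the other WT bigenic arrays and 4.18 to 5.20 on the nontransgenic arrays, and on 4 of the 5 dNLS bigenic arrays it was 5.42 to 6.05. The part of the microglia or choroid plexus in the members' levels was not tested.

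Among 14 markers of lymphocytes and blood monocytes, 5 rose above the lowest value on any array. The mean of all 14, most of which stayed at the lowest value, was 3.08 on WT bigenic 3. That lay above the 2.46 to 2.68 of the other WT bigenic arrays and inside the nontransgenic range of 2.55 to 3.72. Lyz2, which monocytes and other myeloid cells express, was highest there at 9.89 (next 8.63), and Ptprc, the pan-leukocyte marker CD45, measured 5.21 against 2.14 to 2.66 in the other WT bigenic mice and 5.28 on nontransgenic 6. S100a9 of neutrophils and monocytes was highest on nontransgenic 8 (11.85), the array with the list mean of 3.72. Cd3e and Cd8a of T cells, Ms4a1 of B cells, Nkg7 of NK cells and Ccr2 of monocytes lay at the lowest value on all arrays. WT bigenic 3 was highest for none of the MHC class II genes, whose mean was 2.68 there and 2.49 to 2.72 in nontransgenic mice. Most of these genes lay at or near the lowest value, so their mean can show little. H2-DMa, the class II gene of highest level, measured 6.30 there, 5.18 to 5.69 in nontransgenic mice and 5.81 to 6.81 in dNLS bigenic mice. Among 24 further interferon-stimulated genes above the lowest value on another array it was highest for 15, some of which, such as Sp100 at 2.14, stayed near the bottom of the scale.

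**Figure D4:**
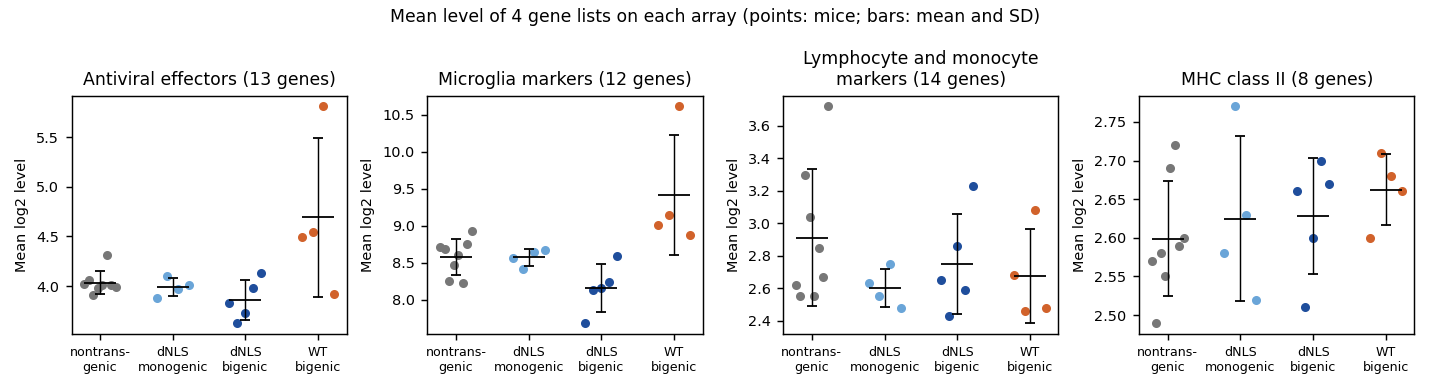
Mean log2 level (vertical axis) of 4 gene lists in each mouse (points) by group, with group mean and SD (bars). WT bigenic 3 stands highest for the antiviral effectors (5.81) and the microglia markers (10.61). For the lymphocyte and monocyte markers (3.08) and MHC class II (2.68) it lies within the range of the nontransgenic mice. Most genes of both of these lists lay at or near the lowest value.

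The 2 forms of TDP-43, both with tTA, were then compared with each other. In dNLS bigenic against WT bigenic mice no member was higher and 4 were lower, where 6.24% of all genes were called higher and 4.53% lower, 10.8% in all. They were the antiviral effectors Bst2, Ifit1 and Rsad2 and the regulator Irf9, a transcription factor of the interferon response. The median change of the members was -0.34 and that of all genes 0.00. At an unadjusted p under 0.05, 10 members were lower and none higher, against 21.3% of all genes in either direction.

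Bst2 measured 3.30, 2.75, 3.16, 4.08 and 4.49 in the 5 dNLS bigenic mice, and only the last of these exceeded WT bigenic 4. Its level was lower by a log2 change of -2.17 ± 0.63, a 4.50-fold difference (adjusted p = 0.0338, limma). Ifit1 measured 2.42, 2.29, 2.26, 2.55 and 2.55, so that WT bigenic 4 at 2.47 lay among the dNLS bigenic mice and the other 3 WT bigenic mice above them all. Its change was -1.71 ± 0.52, or 3.26-fold (adjusted p = 0.0444, limma).

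Of these 4 members only Irf9 had groups that did not overlap, and the share of all genes without overlap was not counted. Irf9 measured 4.97, 3.45, 4.57, 4.45 and 4.52 in dNLS bigenic mice and 5.23, 5.66, 7.20 and 5.34 in WT bigenic mice. Its change was -1.49 ± 0.44, or 2.80-fold (adjusted p = 0.0387, limma). Rsad2 lay between 2.04 and 2.07 in all dNLS bigenic mice, at the bottom of the scale, and its change was -1.12 ± 0.35 (adjusted p = 0.0491, limma). Usp18, with -1.70 ± 0.54, missed the threshold (adjusted p = 0.0561, limma).

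These 4 calls lay close to the threshold and depended on single mice. Over 32 alternative analyses Bst2 was called in 24, Irf9 in 21, Ifit1 in 11 and Rsad2 in 10, with highest adjusted p-values of 0.213 to 0.262 (limma). Without WT bigenic 3, Ifit1 and Rsad2 stayed past the threshold (-1.06 and -0.67, adjusted p = 0.0331 and 0.0197, limma), joined by Usp18 (-0.98) and Tap2. Tap2 lay at 2.04 to 2.05 on every array of that fit, at the bottom of the scale. Bst2 (-1.55) and Irf9 (-1.08) missed the threshold (adjusted p = 0.0657 and 0.0893, limma). No member was called without dNLS bigenic 2, dNLS bigenic 3, dNLS monogenic 4 or WT bigenic 2, or with only the 2 groups in the fit. None of the 4 genes passed the test between dNLS bigenic and nontransgenic mice, where their changes were -0.07 to -0.49. Of the 12 microglia markers, 4 were lower in dNLS bigenic than in WT bigenic mice and none higher, against 4.53% and 6.24% of all genes, with Tmem119, a marker of resident microglia, at -0.88 ± 0.18 (adjusted p = 0.00373, limma).

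H2-K1 and H2-D1, the heavy chains of class I, varied from mouse to mouse in an order that crossed all 4 groups. The same 6 arrays were the highest for both genes, namely dNLS bigenic 1, dNLS monogenic 2, nontransgenic 3 and 5, and WT bigenic 3 and 4. H2-K1 measured 9.13 to 9.27 on these 6 and 6.89 to 8.44 on the other 15. H2-D1 measured 9.32 to 9.72 on the 6 and 6.78 to 8.73 on the 15. The 6 arrays were taken from H2-D1 itself and were already shared by H2-K1. Over 9539 genes the only further gene with them at one end of its range was Ring1, by a gap of 0.02. All 3 genes lie on chromosome 17, as do 463 of the 9539 genes. Ring1, a Polycomb gene with 2 genes listed between it and H2-K1, measured 7.40 to 7.86 on the 6 arrays and 6.63 to 7.37 on the others. This pattern was found after the values were seen. The labels do not give the strain of each mouse at this region, and whether the probes see a difference of expression or of sequence there was not tested.

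B2m and Tapbp did not follow these 6 arrays, and Tapbp too lies on chromosome 17. On dNLS monogenic 2, for example, B2m measured 12.72 and Tapbp 10.53, each the lowest of its group. That array also had the largest beta-actin difference of its group (3.13). On WT bigenic 3, another of the 6, both genes were at their highest (13.30 and 11.57). A further probe set of H2-K1 repeated the order, with 7.58 to 8.72 on the 6 arrays and at most 6.63 on the others, and one of H2-D1 had 8.16 to 8.64 against at most 7.85. A dim probe set of each gene was instead highest on WT bigenic 3 and then 2 (3.94 and 2.64 for H2-D1, 4.28 and 3.55 for H2-K1). Usp18, Bst2 and Cxcl10 were also highest on these arrays in that order, while Ifit1 and Rsad2 were higher on WT bigenic 1 than on WT bigenic 2. On WT bigenic 1 the 2 dim probe sets measured 2.12 and 3.18. The remaining probe sets of the 2 genes reached at most 2.43. Class I genes are close copies of each other and several of these probe sets are of the type that may bind related transcripts, so which class I gene each measures is uncertain. Neither gene passed the test in any comparison. In WT bigenic against nontransgenic mice H2-K1 differed by 0.72 ± 0.41 and H2-D1 by 0.93 ± 0.49 (adjusted p = 0.364 and 0.323, limma), with both groups spread over the high and the low arrays.

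**Figure D5:**
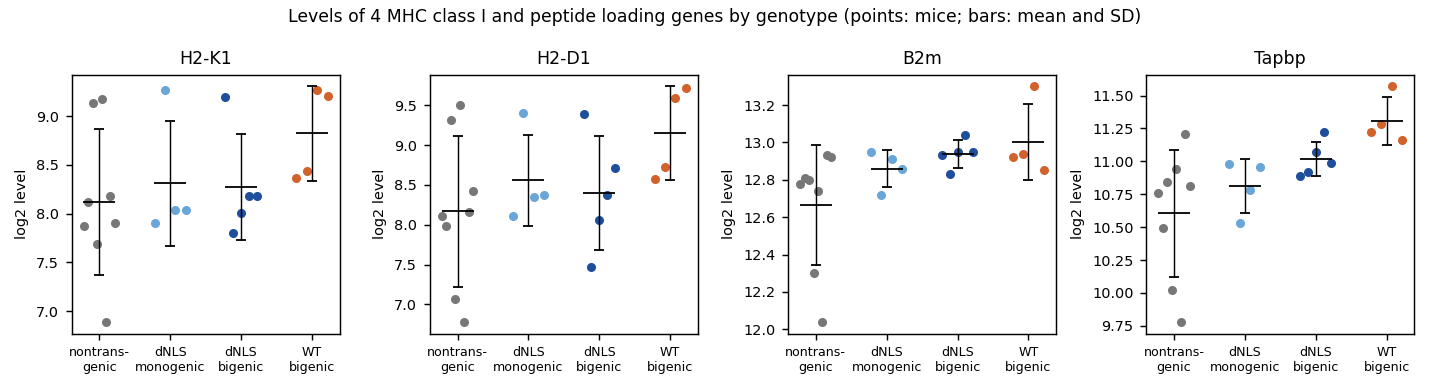
Log2 level (vertical axis) of H2-K1, H2-D1, B2m and Tapbp in each mouse (points) by group, with group mean and SD (bars). H2-K1 and H2-D1 each have a separate upper set of 6 points, above 9, with mice of all 4 groups, which B2m and Tapbp lack.

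Of 11 interferon receptor and JAK-STAT genes, 2 were higher and 2 lower in dNLS bigenic than in nontransgenic mice, a comparison in which 22.3% of all genes were called. Ifngr2, a chain of the interferon gamma receptor, measured 10.86, 10.86, 10.66, 10.86 and 10.88 in dNLS bigenic mice and at most 9.73 in every other mouse. It rose by 1.97 ± 0.30, or 3.91-fold, against nontransgenic mice (adjusted p = 0.00013, limma). Nontransgenic 4 and 6, the arrays with the largest beta-actin difference, measured 7.82 and 7.42, and the other nontransgenic mice 9.16 to 9.43. It was also higher than in dNLS monogenic mice by 1.43 ± 0.34 and than in WT bigenic mice by 1.27 ± 0.37 (adjusted p = 0.00837 and 0.0348, limma). Ifnar2, a chain of the type I receptor, rose by 0.66 ± 0.21 (adjusted p = 0.0332, limma), and nontransgenic 6 and 4 were its lowest nontransgenic arrays too. The part of RNA quality in these differences was not tested.

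Socs3, a feedback inhibitor of JAK signalling, lay between 2.04 and 2.31 in dNLS bigenic mice and between 2.20 and 6.74 in nontransgenic mice. It fell by 1.91 ± 0.58 (adjusted p = 0.0241, limma), and its highest nontransgenic value was that of nontransgenic 6. Jak2, a kinase of the interferon gamma receptor, fell by 0.39 ± 0.13 (adjusted p = 0.0375, limma). Its highest nontransgenic values were those of nontransgenic 6 and 4 (11.33 and 11.25). In WT bigenic against nontransgenic mice 1 of the 11 passed, where 0.686% of all genes were called higher and 1.54% lower. It was Ifnar1, which rose by 0.40 ± 0.10 (adjusted p = 0.0456, limma).

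Of 16 genes of nucleic acid sensing, 2 were higher and 2 lower in dNLS bigenic than in nontransgenic mice, a share near the 22.3% of all genes. Tlr3, the endosomal receptor for double-stranded RNA, measured 9.67 to 9.83 in dNLS bigenic mice and 9.99 to 10.45 in nontransgenic mice, without overlap, and fell by 0.58 ± 0.10 (adjusted p = 0.0005, limma). Tbk1, the kinase that activates IRF3, fell by 0.43 ± 0.12 (adjusted p = 0.0181, limma), and its highest nontransgenic values were those of nontransgenic 6 and 4 (11.72 and 11.22). Adar, an RNA editing enzyme, rose by 0.20 and Irf5 by 0.10, both small. The Adar levels lay near the bottom of the scale, with means of 2.47 in dNLS bigenic and 2.26 in nontransgenic mice.

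Of 34 further interferon-stimulated genes 1 was higher and 1 lower in dNLS bigenic mice, a share under the 22.3% of all genes. That 22.3% was not matched for level, and 24 of the 34 lay above the lowest value on an array. Psmb10, a subunit of the immunoproteasome that cuts peptides for class I, fell by 0.42 ± 0.07 (adjusted p = 0.00015, limma), and Slfn2 rose by 0.16 near the bottom of the scale. None of 9 further class I and peptide supply genes passed in dNLS bigenic mice. In WT bigenic against nontransgenic mice 1 did, where 0.686% of all genes were called higher and 1.54% lower. It was Calr, a chaperone of the peptide loading complex, which fell by 0.21 ± 0.05 (adjusted p = 0.0312, limma). Of 8 MHC class II genes 1 passed in dNLS bigenic against nontransgenic mice, H2-DMa, which helps load class II. It rose by 0.74 ± 0.16 (adjusted p = 0.00244, limma). Of the microglia markers, Tmem119 fell in the same comparison by 0.61 ± 0.15 and Gpr34 by 1.04 ± 0.30 (adjusted p = 0.00529 and 0.0196, limma).

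Between dNLS bigenic and WT bigenic mice 3 of the 34 further interferon-stimulated genes were lower and none higher, where 4.53% of all genes were lower and 6.24% higher, and they are named after their values were seen. Trim30a measured 5.72, 5.65, 5.85, 5.51 and 6.62 in dNLS bigenic mice and 7.32, 7.77, 9.23 and 6.73 in WT bigenic mice, without overlap, a change of -1.76 ± 0.41 (adjusted p = 0.00865, limma). Psmb10 and Psme1, which serve the proteasome, changed by -0.58 ± 0.08 and -0.69 ± 0.20 (adjusted p = 0.00015 and 0.0325, limma). In WT bigenic against nontransgenic mice none of the 34 passed. Of the 16 sensing genes, 2 were lower and 1 higher in dNLS bigenic than in WT bigenic mice. Eif2ak2, the kinase PKR that stops translation on double-stranded RNA, changed by -1.11 ± 0.29 (adjusted p = 0.0183, limma), Tlr3 by -0.58 ± 0.13 (0.00587) and Irf5 by 0.16 ± 0.04 (0.0131).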

How the data were processed

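The deposited values are the authors' log2 levels of 22690 probe sets. The base was inferred from their range of 2.04 to 15.1. Partek is named per the submitters' processing notes, and how background was corrected and arrays normalized is not given in the sources used here. After 64 control probe sets were removed, 20380 probe sets named 1 gene, 691 several and 1555 none, and only the first were used. The probe genes table was compared with RefSeq through Entrez identifiers (20351 matched, 29 did not, no symbol changed). Group means, with sex as a covariate, were fitted in limma 3.58.1 under R 4.3.3 (lmFit, eBayes with an intensity trend). The fit was tested on simulated data. The 2854 genes at the lowest value on all arrays stayed in. Standard errors are those of the fit, and changes are adjusted for sex, so they can differ from the difference of group means. The number of arrays limits the precision.

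The members and lists were chosen with earlier results of these data known. Values by array are given for members past the threshold in a comparison and for those of highest level; of other lists, for genes past it in a bigenic group against nontransgenic mice, at most the 4 largest changes per list. Other genes named were chosen after their values were seen. Alternatives were array centring, quantile normalization, other covariates, probe sets, filters and controls, and leaving out each mouse. Comparisons against nontransgenic mice share those controls.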

Additional observations from a re-analysis of the deposited data

Results flagged for a closer look

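In the 68 combinations of gene and group that were examined, 8 arrays stood apart from the rest of their group. The rule has a nominal rate of 1 in 20 for independent values. Here the same arrays, WT bigenic 3 and nontransgenic 6, recur among the 8, and several groups lay near the lowest value. The rate over all genes was not measured, so the 8 cannot be called an excess. Irf8, a transcription factor of macrophages and microglia, measured 6.29 on WT bigenic 3 (next 2.97) and 4.94 on nontransgenic 6 (next 2.76). Ifih1, the RNA sensor MDA5, measured 6.58 on nontransgenic 6 (next 2.36) and 3.32 on WT bigenic 3 (next 2.30). Oas1a measured 3.21 on WT bigenic 3 (next 2.24), and Gbp2 3.24 on nontransgenic 6 (next 2.34). H2-K1 measured 9.27 on dNLS monogenic 2 (next 8.04) and 9.20 on dNLS bigenic 1 (next 8.18).

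The change from nontransgenic mice differed between dNLS bigenic and WT bigenic mice, by the limma test of the 2 groups, for 4 members. The difference was -2.17 for Bst2, -1.71 for Ifit1, -1.49 for Irf9 and -1.12 for Rsad2.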

How the results depend on the processing

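The count of members called was 1 in dNLS bigenic against nontransgenic mice. It was 2 with only the 2 groups fitted, with controls of the same line and in male mice only, and 1 to 2 as each mouse was left out. In WT bigenic against nontransgenic mice the count was 0, and it became 7 with centred arrays, 4 without the sex covariate, 2 without the genes at the lowest value, 1 with beta-actin as a covariate, 1 without nontransgenic 4 and 6 together, and 0 to 4 as each mouse was left out. It stayed 0 against controls of the same line and in female mice only, an analysis added after seeing the data. In dNLS bigenic against WT bigenic mice the count of 4 became 7 without the sex covariate, 2 over all probe sets, 2 with the probe sets of largest spread, 0 with only the 2 groups, and 0 to 6 as each mouse was left out. It was 1 without dNLS bigenic 1 or 5, dNLS monogenic 3, nontransgenic 1 or 8, or WT bigenic 1, and 2 without dNLS bigenic 4, dNLS monogenic 1 or 2, or nontransgenic 2, 3, 4, 5 or 7. In dNLS bigenic against dNLS monogenic mice the count of 0 became 1 under quantile normalization, 1 with beta-actin as a covariate, 1 without nontransgenic 4 and 6 together, and 0 to 1 as each mouse was left out. It stayed 0 in every analysis of monogenic against nontransgenic mice. The cause of these moves was not tested.

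Centring the arrays turned the change of Ifi35 in WT bigenic mice to -0.11 (adjusted p = 0.0393, limma), from 0.00. In the same setting, calls over all genes went from 276, of which 30.8% were higher, to 4966, of which 4.55% were higher, and in dNLS bigenic against nontransgenic mice from 48.4% higher to 35.8%. Of the single-gene values under an alternative, 5004 kept their side of the threshold and their direction, 43 passed it newly, 62 lost it and 1 reversed. No paired analysis was possible because the labels give no replicate numbers that groups share. For the 8 members that never reached 3, signal near the lowest value limits what a change can show.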
